A study of Homo sapiens with 10 samples.

Results

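Mahlavu, a human hepatocellular carcinoma cell line, was sequenced in 1 library from cells labelled as mock control and 1 library from cells labelled as overexpressing the C-terminal end of PSPC1 (PSPC1-CT131). These are 2 of the 10 RNA sequencing libraries of the series. The pair was defined by its labels, and the comparison was chosen with earlier results of these data known. The only other Mahlavu library came from cells labelled as carrying an NLS (nuclear localization sequence) mutation of PSPC1 (Mut-NLS). The study describes its Mut-NLS construct as the same CT131 fragment with that sequence disrupted, whereas the label names only PSPC1. Values of the Mut-NLS library are printed beside those of the pair. That library shares the mock library with the comparison, so a value at which mock stands apart moves both differences at once. The other 7 libraries came from SK-hep1 (5, of which 1 was a mock control) and Huh-7 (2) cells. The 3 Mahlavu lines were grown in Dulbecco's modified Eagle's medium with serum, and the labels do not say whether a library came from 1 clone or a pool of transfected cells. With 1 library a side there was no replicate, hence no SD, standard error or p-value, and library and condition cannot be told apart. Intervals printed below cover counting error only, and PCR copies were not marked by molecular identifiers, so they are narrower than the true error.

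PSPC1 belongs to a small family of RNA-binding proteins, with SFPQ (PSF) and NONO (p54nrb), that gather on the long noncoding RNA NEAT1 to form paraspeckles, bodies of the nucleus that hold RNA and regulate transcription and splicing. PTK6 is a nonreceptor tyrosine kinase whose known substrates include several nuclear RNA-binding proteins. The study built CT131 from the C-terminal region of PSPC1 as an inhibitor of PSPC1 and PTK6, and expressed it in Mahlavu cells to ask what becomes of their signaling, of EMT (the loss of epithelial for mesenchymal traits) and of stemness. A protein fragment can act on proteins without moving the mRNA of its targets, and the values here are mRNA only.

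The mock library held 22685424 reads on genes and the CT131 library 19803374, on 24052 and 20999 genes. Levels are FPKM as deposited (reads scaled to gene length and library size), comparable between genes. Changes are log2 differences, CT131 over mock, of quantile-normalized FPKM after adding 1, so a change of 1 is 2-fold and low genes are understated. They were taken for the 12415 genes whose quantile-normalized FPKM averaged 1 or more over the pair. Each change is also given after GC adjustment, in which the part of the change that follows the GC content of the gene's longest transcript was subtracted. Throughout, "before" and "after" refer to that adjustment, and higher and lower mean in the CT131 library against mock.

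The label of the cells was checked against marker genes. Of 14 genes of secreted hepatocyte proteins, 13 were under 1 FPKM in both libraries and 8, albumin (ALB) and transthyretin (TTR) among them, had no read in either. The exception was SERPINA1, alpha-1 antitrypsin, at 7.97 FPKM in mock and 8.35 in CT131. All 10 hepatocyte transcription factors were under 1 FPKM in both, 6 of them without a read. The keratins KRT8 (1239 FPKM in mock and 1311 in CT131) and KRT18 (262 and 269 FPKM) were abundant, while EPCAM had no read and CDH1, E-cadherin, had 17 reads in mock and 21 in CT131. Among the markers of other cell types, 8 of 10 endothelial, 5 of 8 fibroblast and 5 of 8 leukocyte genes were under 1 FPKM in both libraries. The leukocyte markers summed to 363 FPKM in mock and 352 in CT131, of which LCP1, an actin-bundling protein that tumor lines also express, made 353 and 339. CD14 stood at 7.15 FPKM in mock and 10.2 in CT131 and ITGAM at 2.51 and 2.73, while PTPRC (CD45) had 1 read in each library. The fibroblast markers summed to 46.4 FPKM in mock and 39.7 in CT131, the endothelial markers to 2.40 and 4.34, and the epithelial markers to 1506 and 1588. Outside these lists, C3, a complement protein that liver and other cells secrete, stood at 954 FPKM in mock and 1194 in CT131.

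PSPC1 itself, the gene named by the label, did not stand higher in the CT131 library. It had 1582 reads in mock, 899 in CT131 and 632 in Mut-NLS. PSPC1 stood at 47.3 FPKM in mock, 30.8 in CT131 and 22.5 in Mut-NLS, with 95% Wilson intervals of 45.01 to 49.7 in mock and 28.8 to 32.9 in CT131. Its log2 change was -0.43 before and -0.33 after. The read counts sum over the whole gene (chromosome 13, 19674752 to 19783019, minus strand, GRCh38), so reads from a construct and from the endogenous gene cannot be told apart, and no excess of PSPC1 reads marked the library labelled PSPC1-CT131.

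The transcripts that took the reads differed in GC content between the libraries. The read-weighted mean GC was 51.8% in mock, 53.6% in CT131 and 51.7% in Mut-NLS, while the 5 SK-hep1 libraries lay between 52.7% and 54.2%. Transcripts under 45% GC took 25.4% of reads in mock, 17.8% in CT131 and 26.0% in Mut-NLS. Transcripts over 60% GC took 19.5%, 24.6% and 19.4%. Mock and Mut-NLS were therefore alike on this measure and CT131 stood apart from both, within the range of the SK-hep1 libraries.

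**Figure D1:**
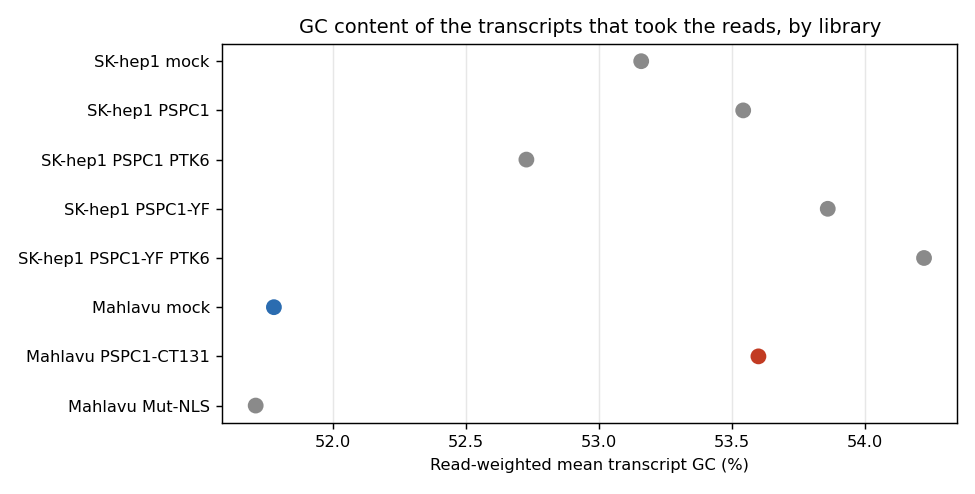
Read-weighted mean GC content, in percent, of the longest transcript of each gene, for the 8 libraries with read counts (blue, Mahlavu mock; red, Mahlavu PSPC1-CT131; gray, the rest). Mahlavu mock (51.8%) and Mut-NLS (51.7%) lie lowest and CT131 (53.6%) lies among the SK-hep1 libraries.

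Gene by gene, the log2 change followed the same property. Over 12402 genes with a GC value, Spearman's rho between the change and transcript GC was 0.57, against -0.10 for Mut-NLS over the same mock and -0.09 to 0.25 for the 4 SK-hep1 libraries over theirs. These are descriptions across genes of single libraries, and genes are not independent replicates. A quadratic in GC accounted for 26.0% of the variance of the changes. In the quartile of genes with the lowest expression rho was 0.42, and in the other quartiles it lay between 0.59 and 0.68. Genes of the lowest GC decile (median GC 37.1%) had a median change of -0.48, with 1 gene past 2-fold upward and 104 downward. Genes of the highest decile (median GC 64.3%) had a median change of 0.33, with 105 higher and 14 lower. After adjustment the lowest decile held 12 higher and 9 lower, the highest decile 41 and 31, and the medians of all 10 deciles lay between -0.02 and 0.05. The adjustment was fitted on GC, so the flat decile medians follow from it. Transcript length was related more weakly, with rho of -0.08 before and 0.10 after.

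Of 12415 genes, 394 (3.17%) reached 2-fold upward and 392 (3.16%) downward before adjustment. After it, 248 (2.0%) were higher and 252 (2.03%) lower among 12402. In all, 210 higher and 205 lower genes passed 2-fold both ways, 184 and 187 passed only before, and 38 and 47 only after. Of the calls before adjustment 50.1% were higher, and 48.9% on TMM counts (scaled by an edgeR factor that aligns the bulk of genes). On FPKM as deposited, where the median change over all genes was -0.24, 195 genes were higher and 1001 lower, so that 16.3% of the calls were higher, and after GC adjustment 18.2% in place of 49.6%.

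The most abundant genes that crossed 2-fold only before adjustment were GC-rich when higher and GC-poor when lower. The adjustment subtracts a trend that rises with GC, so this pattern follows from the step itself. The reverse pattern among genes that crossed only after adjustment follows from it too. Among the higher were FASN, fatty acid synthase (1.15 before and 0.80 after), LAMA5, a laminin chain (1.16 before and 0.80 after), the glycolytic enzyme PFKP (1.16 before and 0.91 after), the gelatinase MMP2 (1.13 before and 0.90 after) and the actin-binding TAGLN2 (1.18 before and 0.93 after). Among the lower were the redox protein TXN (-1.16 before and -0.95 after), the cytochrome oxidase subunit COX7C (-1.15 before and -0.75 after), the ribosomal protein RPL34 (-1.12 before and -0.91 after) and the chaperones HSPD1 (-1.10 before and -0.95 after) and HSP90AA1 (-1.05 before and -0.94 after). Of the genes that crossed only after it, the 5 higher lay between 35.5% and 44.0% GC and the 5 lower between 49.5% and 60.5%. Lactate dehydrogenase A, LDHA (0.98 before and 1.14 after), the tetraspanin-like TM4SF1 (0.80 before and 1.20 after), the lysosomal enzyme IDS (0.85 before and 1.04 after), the cytokine receptor chain IL10RB (0.92 before and 1.27 after) and MMP24OS (0.59 before and 1.17 after) then counted as higher. The myosin light chains MYL9 (-0.91 before and -1.21 after) and MYL12B (-0.97 before and -1.02 after), the metallothionein MT2A (-0.96 before and -1.14 after), UQCRH of the respiratory chain (-0.99 before and -1.04 after) and the antiviral IFITM3 (-0.86 before and -1.10 after) then counted as lower. Most of these 20 genes lay near the 2-fold line on both scales.

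PTK6 (chromosome 20, 63528001 to 63537370, minus strand) was higher in CT131, by close to 2-fold. PTK6 stood at 8.95 FPKM in mock, 17.2 in CT131 and 17.3 in Mut-NLS, with 95% Wilson intervals of 8.22 to 9.73 in mock and 16.1 to 18.3 in CT131, which do not overlap. Its log2 change was 1.27 before and 1.02 after, and Mut-NLS stood at the CT131 level. The 2-fold call depended on the setting. Over the alternatives the change of PTK6 ran from 0.87 to 1.39 before, past 2-fold in 6 of 8 settings, and from 0.59 to 1.20 after, past it in 5 of 11. It was lowest on FPKM as deposited. The list of 18 kept kinase and substrate genes had a median of 0.14 before and 0.02 after. PTK6 was its 1 member past 2-fold (5.56% on each scale). Among all genes 3.17% were higher before and 2.0% after. Its substrate KHDRBS1 (Sam68), an RNA-binding protein, changed by -0.16 before and -0.14 after, and CTNNB1, beta-catenin, by -0.27 before and -0.09 after.

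The paraspeckle genes were mostly a little lower. Of 16 kept members 14 had a negative change after adjustment, beside 5952 of 12402 among all genes. Before adjustment 1 member was 2-fold lower (6.25%, against 3.16% of all genes). None was past 2-fold after it, close to the 2.0% higher and 2.03% lower among all genes. The median was -0.18 before and -0.19 after, although on TMM counts it turned to 0.18 and 0.11. NEAT1, the RNA scaffold, was furthest down. NEAT1 stood at 49.3 FPKM in mock, 20.7 in CT131 and 23.5 in Mut-NLS, a change of -1.04 before and -0.89 after, past 2-fold only before adjustment. Its partners were nearly level, SFPQ at -0.24 before and -0.26 after and NONO at -0.14 before and -0.09 after. In Mut-NLS, over the same mock, the log2 changes were -1.14 for SFPQ and -1.06 for PSPC1.

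A list of 20 of the genes the study wrote about, PTK6 and PSPC1 among them, gave 1 further 2-fold difference. Of its 15 kept genes 2 were higher on each scale (13.3%, against 3.17% before and 2.0% after among all genes), and none was lower. TGFB1, the TGF-beta ligand, was higher. TGFB1 stood at 418 FPKM in mock, 1069 in CT131 and 679 in Mut-NLS, a change of 1.36 before and 1.02 after, past 2-fold in 8 of 8 settings before and 8 of 11 after. CDH1 stayed under 1 FPKM in all 3 Mahlavu libraries, POU5F1 likewise (26 reads in mock, 21 in CT131), SOX2 and WNT3A had 2 and 1 reads in mock and none in CT131, and NANOG had none in either. No direction can be drawn for those 5 genes. CDH2, N-cadherin, was at 0.29 before and 0.41 after, SNAI1 at 0.94 before and 0.67 after, SNAI2 at 0.45 before and 0.72 after and TWIST1 at -0.03 before and -0.28 after, all EMT regulators or markers within 2-fold. MYC was at 0.08 before and -0.10 after, MET, the HGF receptor, at -0.21 before and 0.02 after, SMAD2 at -0.16 before and 0.17 after and SMAD3 at -0.14 before and -0.21 after. Over the 15 kept genes of these 20 the median was -0.14 before and -0.09 after (0.20 before on TMM counts).

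Among the genes furthest down on both scales were 3 interferon-induced genes. IFI6 (chromosome 1, 27666061 to 27672218, minus strand), a mitochondrial protein induced by interferon, had 11093 reads in mock, 592 in CT131 and 625 in Mut-NLS. IFI6 stood at 589 FPKM in mock, 36.0 in CT131 and 39.5 in Mut-NLS, a change of -4.19 before and -4.42 after. Its ratio of depth-scaled reads, without quantile normalization or GC adjustment, was -4.03 on the log2 scale (exact binomial interval -4.15 to -3.91). OAS2, an oligoadenylate synthetase that senses viral RNA, and MX1, an antiviral GTPase, followed at -3.04 before and -3.00 after and -2.82 before and -2.95 after. In all 3 genes mock was the high library and CT131 lay beside Mut-NLS. IGFN1, a protein with immunoglobulin and fibronectin domains, went from 104 FPKM in mock to 5.54 in CT131, with 27.3 in Mut-NLS between them (-3.98 before and -4.22 after). The others were TMEM130 (-2.83 before and -3.04 after), LGALS9, galectin-9 (-2.83 before and -3.01 after), the carboxypeptidase CPA4 (-2.52 before and -2.55 after), vitronectin, VTN (-2.49 before and -2.73 after), neuromedin U, NMU (-2.46 before and -2.46 after), the matrix protein MATN2 (-2.38 before and -2.39 after), and the placental genes PSG1 (-2.90 before and -2.77 after) and ALPP (-2.57 before and -2.89 after). PSG1 and ALPP have near-identical relatives, so their counts are uncertain. VTN, LGALS9 and ALPP rested on 26, 14 and 12 reads in CT131.

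At the other end stood LINC02582, a long noncoding RNA, with 21 reads in mock, 288 in CT131 and 66 in Mut-NLS (3.36 before and 3.72 after). UNC13D, which primes secretory granules, went from 8.64 to 78.5 FPKM, with 33.5 in Mut-NLS (3.42 before and 3.08 after). CA9, a membrane carbonic anhydrase known as a target of the hypoxia factor HIF, was at 3.36 before and 3.06 after. CA9 went from 2.54 to 26.3 FPKM, with 13.7 in Mut-NLS. Its ratio of depth-scaled reads was 3.37 on the log2 scale, with an exact interval of 2.98 to 3.79. The tryptases TPSAB1 (3.33 before and 2.98 after) and TPSB2 (3.24 before and 2.89 after) are near-identical neighbors on chromosome 16, so that reads may be split between them, and both were higher again in Mut-NLS. The matrix glycoprotein tenascin C, TNC (2.67 before and 2.49 after), the corepressor HR (2.74 before and 2.38 after), the galactosyltransferase B3GALT4 (2.61 before and 2.25 after), the channel gene CALHM3 (2.51 before and 2.20 after), CYP2S1, a cytochrome P450 (2.46 before and 2.14 after), and HHIPL2 (2.30 before and 2.14 after) were among them too.

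**Figure D2:**
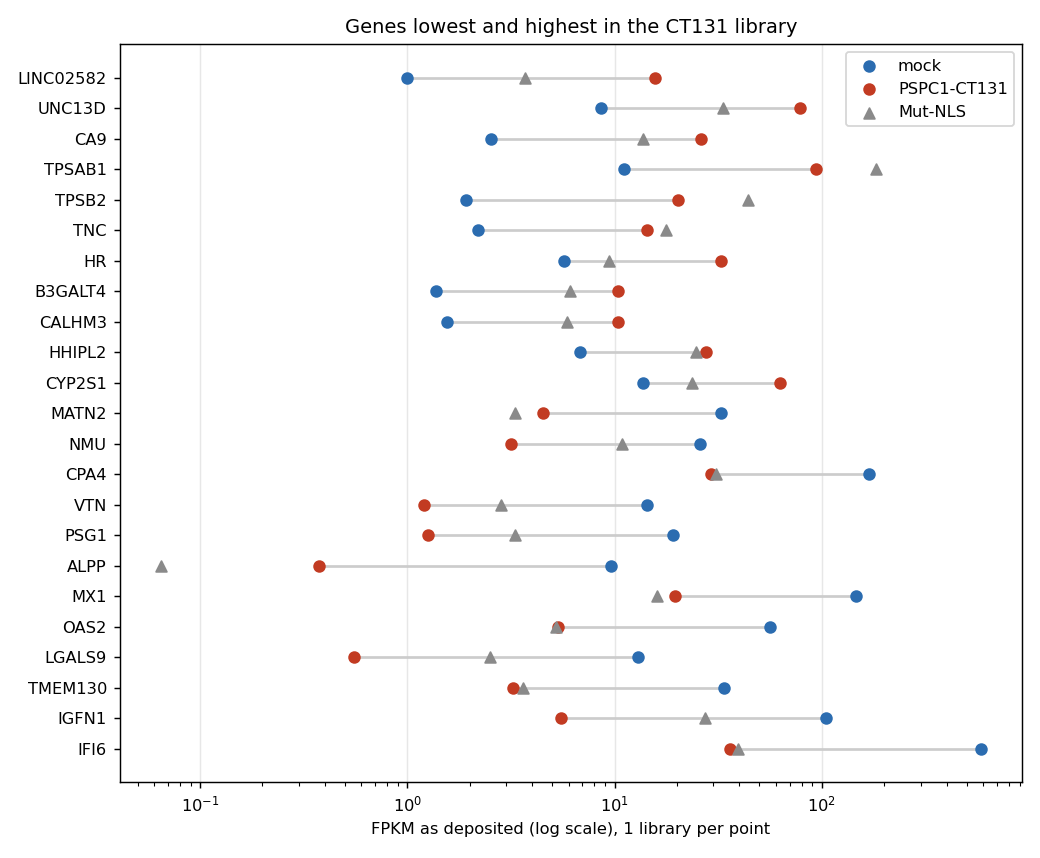
FPKM as deposited, on a log axis, of genes from among the 12 lowest and the 12 highest in the CT131 library on both scales, in Mahlavu mock (blue), PSPC1-CT131 (red) and Mut-NLS (gray triangle), 1 library each. IFI6 goes from 589 FPKM in mock to 36.0 in CT131 and UNC13D from 8.64 to 78.5.

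Interferon-stimulated genes had the lowest median of the lists with over 2 kept genes, except on FPKM as deposited, on TMM counts, with 0.1 added and with at least 5 FPKM, where the histone list was lower after adjustment. Type I interferons signal through a complex that includes STAT2 and IRF9, which binds a short promoter element, the ISRE, and switches on antiviral effectors. Of 53 kept members 28 were at least 2-fold lower before adjustment and 29 after, and 1 was higher on both scales, beside 3.16% and 2.03% lower among all genes. The median was -1.10 before and -1.04 after, and 49 of 53 changes were negative either way. Among all genes 6084 of 12415 were negative before and 5952 of 12402 after. IFI27 went from 758 to 181 FPKM (-2.28 before and -2.36 after), IFI44L from 9.89 to 0.232 (-2.74 before and -2.29 after), IFITM1 from 89.8 to 17.0 (-2.26 before and -2.40 after) and TRIM22 from 9.29 to 0.349 (-2.54 before and -2.29 after). IFI44L and TRIM22 each rested on 8 reads in CT131. STAT2, a factor of the pathway, was lower by less (-0.94 before and -1.01 after). OASL went the other way. OASL stood at 11.5 FPKM in mock, 37.5 in CT131 and 26.7 in Mut-NLS, a change of 1.99 before and 1.88 after. With 5 added to each value in place of 1, 18 members remained past 2-fold lower on each scale. The list's median in Mut-NLS, over the same mock, was -1.09. As the lists were chosen with earlier results of these data known, the rank of this list is a description only.

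Antigen presentation genes, which interferon-gamma also induces, had no member of 21 past 2-fold, which is close to the shares among all genes (3.17% and 3.16% before, 2.0% and 2.03% after), with a median of 0.02 before and -0.22 after. B2M, the light chain of MHC class I, went from 1805 to 1311 FPKM (-0.81 before and -0.50 after), and TAP1 was at 0.13 before and -0.13 after.

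Promoters of 3 interferon-stimulated genes far down and 3 hypoxia genes far up are shown, since most called members of each group lay on the same side of mock. They are the RefSeq windows on GRCh38.p14 from 250 bases before to 50 after the start, written 5′ to 3′ on the gene's strand, for the first 3 genes of each group that have a single window in the table. OAS2 and MX1 are passed over by that rule. Capitals in the first 3 mark GAAANNGAAA (the ISRE core, either strand).
IFI6, chr1:27672143-27672442, minus strand: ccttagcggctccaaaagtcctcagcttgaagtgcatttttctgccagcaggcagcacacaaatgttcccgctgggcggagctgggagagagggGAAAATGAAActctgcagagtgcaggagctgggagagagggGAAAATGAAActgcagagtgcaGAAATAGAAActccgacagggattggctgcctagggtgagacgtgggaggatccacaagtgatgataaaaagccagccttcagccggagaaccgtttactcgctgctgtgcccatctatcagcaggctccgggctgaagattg
IFI44L, chr1:78620198-78620497, plus strand: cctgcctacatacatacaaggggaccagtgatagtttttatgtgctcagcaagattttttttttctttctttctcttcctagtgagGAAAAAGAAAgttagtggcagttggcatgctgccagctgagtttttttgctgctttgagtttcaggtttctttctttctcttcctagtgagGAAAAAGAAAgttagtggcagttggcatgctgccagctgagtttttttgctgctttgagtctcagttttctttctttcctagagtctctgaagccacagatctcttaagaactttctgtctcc
IFITM1, chr11:313790-314089, plus strand: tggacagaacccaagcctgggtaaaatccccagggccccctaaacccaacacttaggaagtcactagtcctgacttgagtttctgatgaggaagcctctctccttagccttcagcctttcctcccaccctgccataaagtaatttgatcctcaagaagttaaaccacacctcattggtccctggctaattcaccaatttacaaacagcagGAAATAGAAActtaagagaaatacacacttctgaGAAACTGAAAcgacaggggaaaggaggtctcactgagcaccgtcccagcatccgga
Capitals in the next 3 mark ACGTG or GCGTG (the core bound by HIF, either strand, where overlaps share letters).
CA9, chr9:35673678-35673977, plus strand: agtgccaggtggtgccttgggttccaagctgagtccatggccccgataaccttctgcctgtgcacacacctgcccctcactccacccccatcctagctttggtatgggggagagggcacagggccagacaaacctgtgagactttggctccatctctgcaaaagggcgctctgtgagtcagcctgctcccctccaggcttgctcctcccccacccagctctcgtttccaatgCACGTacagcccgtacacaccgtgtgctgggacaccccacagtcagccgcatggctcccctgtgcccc
CA12, chr15:63381797-63382096, minus strand: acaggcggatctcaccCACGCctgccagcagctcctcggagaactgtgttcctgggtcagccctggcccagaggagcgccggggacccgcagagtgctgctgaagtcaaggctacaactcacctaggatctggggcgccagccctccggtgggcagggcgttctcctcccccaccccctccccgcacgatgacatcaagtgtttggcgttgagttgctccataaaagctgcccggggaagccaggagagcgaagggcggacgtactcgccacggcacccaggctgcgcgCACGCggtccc
ENO2, chr12:6914330-6914629, plus strand: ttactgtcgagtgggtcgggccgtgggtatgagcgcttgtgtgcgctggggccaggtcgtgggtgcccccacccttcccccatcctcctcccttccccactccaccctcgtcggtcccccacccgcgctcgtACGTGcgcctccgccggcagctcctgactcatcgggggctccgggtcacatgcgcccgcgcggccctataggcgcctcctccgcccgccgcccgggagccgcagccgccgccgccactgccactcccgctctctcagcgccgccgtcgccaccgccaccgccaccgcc
GAAANNGAAA occurred in 3.57% of all 35116 promoter windows. It occurred in 33 of 59 windows of 42 kept interferon-stimulated genes (55.9%), in 18 of 28 windows of those past 2-fold lower on both scales (64.3%) and in 15 of 31 windows of the rest (48.4%). ACGTG or GCGTG occurred in 48.4% of all windows, in 10 of 14 windows of hypoxia and glycolysis genes past 2-fold higher on both scales (71.4%) and in 39 of 50 windows of the rest of that list (78.0%). The short HIF core thus did not separate the hypoxia genes past 2-fold from the rest of their list. A match is a run of letters, not a measured site.

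Hypoxia and glycolysis genes had the highest median of the 27 lists after adjustment, under the main setting and all 10 alternatives run. All settings use the same 2 libraries, and the lists were chosen with earlier results of these data known. The rank is therefore a description only. In low oxygen, or where HIF is otherwise stabilized, cells raise glucose uptake, glycolysis and lactate export. Of 46 kept members 16 were at least 2-fold higher before adjustment and 14 after, none was lower on either scale, and the median was 0.62 before and 0.70 after, beside 3.17% and 2.0% higher among all genes. After adjustment 42 of 46 changes were positive, beside 6450 of 12402 among all genes. The order runs from uptake to export. The glucose transporter SLC2A1 was at 1.53 before and 1.33 after, and SLC2A3, another, went from 12.3 to 28.0 FPKM and was past 2-fold on both scales (1.58 after). SLC2A1 stood at 165 FPKM in mock, 479 in CT131 and 182 in Mut-NLS. Of the glycolytic enzymes PGK1 was at 1.25 before and 1.44 after, ENO2 at 2.01 before and 1.81 after, TPI1 at 1.02 before and 0.76 after and LDHA at 0.98 before and 1.14 after, whereas GAPDH was at 0.41 before and 0.13 after and ENO1 at 0.23 before and 0.09 after. The regulator PFKFB4 (1.82 before and 1.58 after), the kinase PDK1, which keeps pyruvate from the mitochondria (0.92 before and 1.28 after), and the lactate exporter SLC16A3 (1.40 before and 1.06 after) were higher too. Among HIF targets outside glycolysis, CA12, another carbonic anhydrase, was at 2.03 before and 1.96 after, the hormone STC1 at 1.70 before and 1.87 after, ANGPTL4 at 1.75 before and 1.40 after, the oxygen sensor EGLN3 at 1.36 before and 1.32 after and the collagen hydroxylase P4HA2 at 1.22 before and 1.19 after. Others of the best-known targets were within 2-fold, VEGFA at 0.70 before and 0.51 after, ADM at 0.41 before and 0.13 after, NDRG1 at 0.38 before and 0.25 after and BNIP3L at 0.03 before and 0.42 after. In Mut-NLS over the same mock the list's median was 0.24, and SLC2A1 (182 FPKM), LDHA (790.5), SLC16A3 (286) and EGLN3 (15.3) lay near mock, while CA12 and SLC2A3 were above CT131. The list's count of higher genes ranged from 12 to 17 over the alternatives after adjustment.

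**Figure D3:**
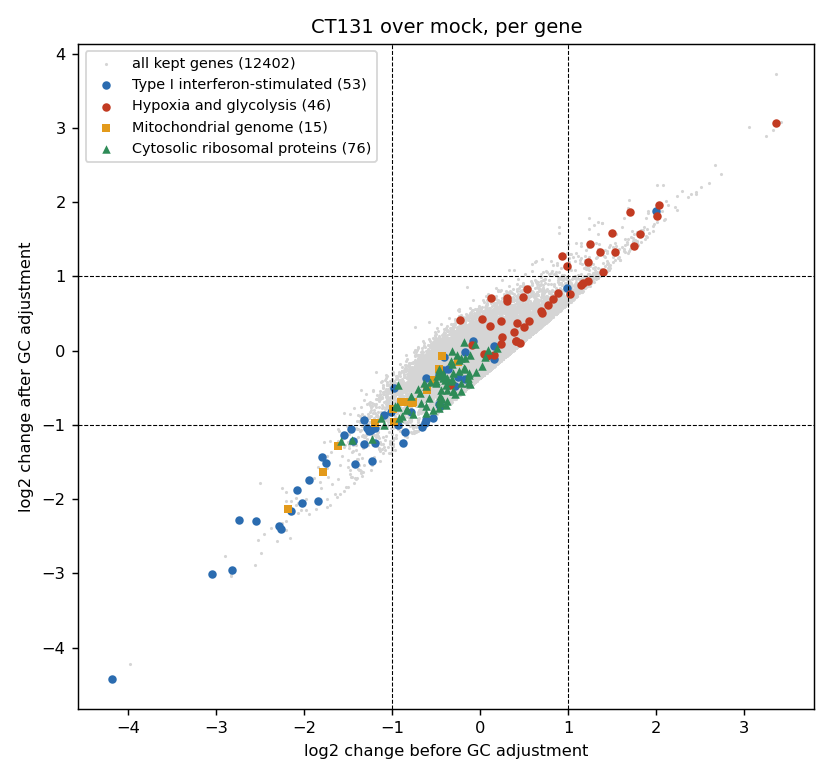
Log2 change of each of 12402 genes (CT131 over mock) before adjustment on the horizontal and after GC adjustment on the vertical axis, with 4 gene lists colored and dashed lines at 2-fold. Interferon-stimulated genes (blue) fill the lower left and hypoxia and glycolysis genes (red) the upper right, and both lie near the diagonal.

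Transcripts of the mitochondrial genome, which encode subunits of the respiratory chain, took 1.54% of reads in mock, 0.820% in CT131 and 1.51% in Mut-NLS. All 15 kept members of the list were lower, with a median of -0.84 before and -0.70 after. Of these 4 were past 2-fold before and 3 after (26.7% and 20%, against 3.16% and 2.03% of all genes). Of all 16 kept genes of the mitochondrial genome, 1 outside the list was higher (0.09 before and 0.77 after). MT-CO3 was furthest down. MT-CO3 stood at 2448 FPKM in mock, 746 in CT131 and 2385 in Mut-NLS, a change of -2.19 before and -2.13 after, and MT-ATP6 (-1.79 before and -1.64 after) and MT-ND3 (-1.62 before and -1.28 after) followed, while MT-CO1, the most abundant, was at -0.76 before and -0.69 after. The nuclear genes of the respiratory complexes had 7 of 62 lower before and 4 after (11.3% and 6.45%) and none higher, with a median of -0.29 before and -0.34 after. COX7B (-1.50 before and -1.23 after) and NDUFB3 (-1.32 before and -1.17 after) were the furthest down. On TMM counts that median was -0.08 before and -0.09 after.

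Cytosolic ribosomal protein genes, all subunits of the ribosome, shared a small difference. Of 76 kept members 72 were negative either way, beside 6084 of all 12415 genes before, 5 were 2-fold lower before and 3 after (6.58% and 3.95%, against 3.16% and 2.03% of all genes), and the median was -0.43 before and -0.46 after. RPL7 (-1.58 before and -1.22 after), RPS24 (-1.46 before and -1.20 after) and RPL31 (-1.23 before and -1.19 after) were the furthest down, and their pseudogenes make single members uncertain. Their size depended on the scaling, since on TMM counts the median was 0.00 before and -0.12 after. Within the list the change followed transcript GC, from RPL5 (-0.93 before and -0.46 after) at 37.4% GC to RPL35 (-0.38 before and -0.73 after) at 63.7%, with rho of 0.44 before and -0.14 after. MYC target genes, many of them ribosome assembly factors, had 5 of 51 lower before and 3 after (9.80% and 5.88%), with a median of -0.09 before and -0.18 after. Nucleophosmin NPM1 (-1.34 before and -1.16 after), the snoRNP protein NOP58 (-1.37 before and -1.09 after) and the chaperonin HSPE1 (-1.10 before and -1.17 after) were lower on both scales, and LDHA was the 1 member higher after adjustment.

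Splicing regulators had no 2-fold call left after adjustment, close to the 2.0% higher and 2.03% lower among all genes. Of 53 SR protein and hnRNP genes, GC-poor as a list (median GC 41.6% against 48.6% for all genes), 5 were 2-fold lower before (9.43%, against 3.16% of all genes) and none after, and the median went from -0.39 to -0.19. The kinases CLK1 (-1.29 before and -0.72 after) and CLK4 (9.90 to 3.22 FPKM), which phosphorylate SR proteins, were among the 5, with PRPF4B (-1.11 before and -0.64 after), RBM39 (-1.11 before and -0.85 after) and MBNL2 (-1.09 before and -0.59 after). Genes of G2/M and mitosis, of median GC 42.5%, had a median of -0.09 before and 0.12 after over 69 members. Their rho to GC was 0.85 before and 0.43 after. CDK1 (-1.15 before and -0.65 after) was the 1 gene past 2-fold, only before (1.45% lower, against 3.16% of all genes). Among 58 genes of DNA replication and G1/S none passed 2-fold, also close to the shares among all genes, with a median of -0.12 either way.

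Matrix and protease genes were higher in part. Of 49 kept members 14 were higher before and 6 after (28.6% and 12.2%, against 3.17% and 2.0% of all genes), and 3 and 2 were lower (6.12% and 4.08%, against 3.16% and 2.03%). The higher count ran from 9 to 18 before and 3 to 13 after over the alternatives, and the median was 0.59 before and 0.46 after, at a median GC of 57.7%. Laminin LAMB3 (1.97 before and 1.68 after), collagen COL7A1 (1.82 before and 1.47 after), the collagen VI chains COL6A1 (1.46 before and 1.11 after) and COL6A2 (1.39 before and 1.02 after), and TNC stayed higher on both scales. LAMA1 (-1.38 before and -1.46 after) and COL12A1 (-1.21 before and -1.14 after) were lower. MMP9 was at 1.25 before and 0.91 after and MMP2 at 1.13 before and 0.90 after, past 2-fold only before. Integrin and focal adhesion genes had 7 of 40 higher before and 6 after (17.5% and 15.0%), with a median of 0.23 and 0.10. ITGB4, which binds laminin (2.24 before and 1.89 after), ITGA5, the fibronectin receptor chain (2.07 before and 1.88 after), ITGA2 (1.38 before and 1.71 after), ITGA11 (1.48 before and 1.43 after) and ITGA6 (1.06 before and 1.26 after) were higher, and ITGA4 was lower (-1.74 before and -1.59 after).

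TGF-beta response genes had 8 of 43 higher before and 6 after (18.6% and 14.0%, against 3.17% and 2.0% of all genes), 2 and 1 lower (4.65% and 2.33%, near the 3.16% and 2.03% of all genes), and a median of 0.44 and 0.42. Besides TGFB1, the higher genes on both scales included BHLHE40 (1.29 before and 1.16 after), CDKN1A (1.37 before and 1.10 after), KLF10 (1.19 before and 1.22 after) and LTBP4 (1.38 before and 1.02 after). TAGLN, transgelin, a smooth muscle gene that TGF-beta induces, was far lower (-2.31 before and -2.57 after). On FPKM as deposited the median after adjustment was 0.09 and 1 member was past 2-fold higher.

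EMT factors and mesenchymal genes went both ways. Of 36 kept members 9 were higher and 5 lower before (25% and 13.9%, against 3.17% and 3.16% of all genes), and 6 higher and 3 lower after (16.7% and 8.33%, against 2.0% and 2.03%), with a median of 0.19 and 0.35. COL6A3 (1.97 before and 1.82 after), ITGA5 and TNC were higher, and TAGLN, the surface protein THY1 (-1.74 before and -1.99 after) and smooth muscle actin ACTA2 (-1.62 before and -1.74 after) were lower. In CT131 TAGLN, THY1 and ACTA2 rested on 19, 7 and 16 reads. After adjustment THY1 and ACTA2 were each past 2-fold in 9 of 10 settings. VIM, vimentin, the classical mesenchymal filament, went from 279 to 532 FPKM (0.88 before and 0.93 after). Epithelial genes had 4 of 15 kept members higher on both scales (26.7%) and none lower, with a median of 0.47 and 0.50. That count ran from 2 to 6 before and from 1 to 4 after over the alternatives. The 4 were P-cadherin CDH3 (1.75 before and 1.56 after), plakophilin PKP3 (1.59 before and 1.22 after), claudin CLDN4 (1.30 before and 1.04 after) and desmoglein DSG2 (1.01 before and 1.25 after), while 21 of the 36 list genes, E-cadherin among them, were not kept. Of 15 kept stemness genes 2 were higher and 4 lower on each scale (13.3% and 26.7%), with a median of -0.13 before and 0.16 after. Its sign turned with at least 5 FPKM before (0.32) and on FPKM as deposited after (-0.17), and the lower count ran from 1 to 5 on each scale. ANPEP (CD13) went from 53.8 to 196 FPKM, with 57.6 in Mut-NLS (2.01 before and 1.73 after), and SOX9 was at 1.44 before and 1.34 after. CD24 (-1.23 before and -1.15 after), ABCB1, a drug efflux pump (-1.28 before and -1.08 after), and THY1 were lower on both scales, BMI1 (-1.11 before and -0.73 after) only before and TERT (-0.72 before and -1.08 after) only after.

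Wnt/beta-catenin target genes had 3 of 24 higher before and 2 after (12.5% and 8.33%, against 3.17% and 2.0% of all genes), 2 lower each way (8.33%), and a median of 0.50 and 0.33. TCF7 (1.82 before and 1.62 after), a nuclear partner of beta-catenin, and SOX9 were higher, NOTUM (1.10 before and 0.74 after) only before, and the Wnt inhibitor DKK1 (-1.49 before and -1.31 after) and BMP4 (-1.48 before and -1.66 after) were lower. AXIN2, a target often used as a readout, stood at 0.516 FPKM in mock and 0.563 in CT131, under the minimum.

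The stress, lipid and signaling lists held 0 to 2 genes past 2-fold in each direction, or 0% to 7.14% of their kept members, around the shares among all genes (3.17% and 3.16% before, 2.0% and 2.03% after). Of 40 UPR and ATF4 genes 2 were higher before and none after, 2 were lower each way, and the median was 0.21 and 0.20. The 2 lower genes encode both chains of an amino acid transporter, SLC7A5 (LAT1) and SLC3A2. SLC7A5 stood at 754 FPKM in mock, 290.1 in CT131 and 216 in Mut-NLS, a change of -1.52 before and -1.84 after. SLC3A2 stood at 585 FPKM in mock, 303 in CT131 and 199 in Mut-NLS, a change of -1.08 before and -1.34 after. Of 32 cholesterol and lipid genes 2 were higher and 2 lower before, SREBF1 (1.02 before and 0.68 after) and FASN against HMGCS1 (-1.30 before and -0.97 after) and IDI1 (-1.20 before and -0.91 after), and none after, with a median of -0.02 and -0.08. NF-kB targets had 1 of 27 higher on both scales, the chemokine CCL5 (2.24 before and 2.08 after), and 1 lower before, CXCL8 (-1.55 before and -0.85 after), with a median of 0.13 and 0.07 (-0.17 before on FPKM as deposited). Immediate early genes had 2 of 28 higher before and 1 after, ETV4 (1.53 before and 1.22 after), with a median of 0.59 and 0.47. Of 28 p53 targets CDKN1A was higher and PLK2 (-1.23 before and -1.20 after) lower on both scales, with a median of 0.05 and 0.09.

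Histone genes and metallothioneins were lower. Replication-dependent histone mRNAs mostly end without a poly-A tail, and 16 of 58 list genes were kept. Of these 8 were 2-fold lower before and 7 after (50% and 43.8%, against 3.16% and 2.03% of all genes), and none was higher. The lower count ran from 4 to 12 before and from 4 to 14 after over the alternatives, and the median was -0.97 and -0.94. The linker histone H1-2 (-1.45 before and -1.71 after), H2BC12 (-1.41 before and -1.73 after), H2BC5 (-1.50 before and -1.48 after) and H2AC13 (-1.42 before and -1.72 after) were among the furthest down, and many of these genes are near-identical copies. H2AC13 rested on 8 reads in CT131. The 2 kept metallothioneins, MT1E (-1.15 before and -1.32 after) and MT2A, which bind zinc and copper, were lower, while Mut-NLS stood above mock for both (79.8 and 716 FPKM).

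**Figure D4:**
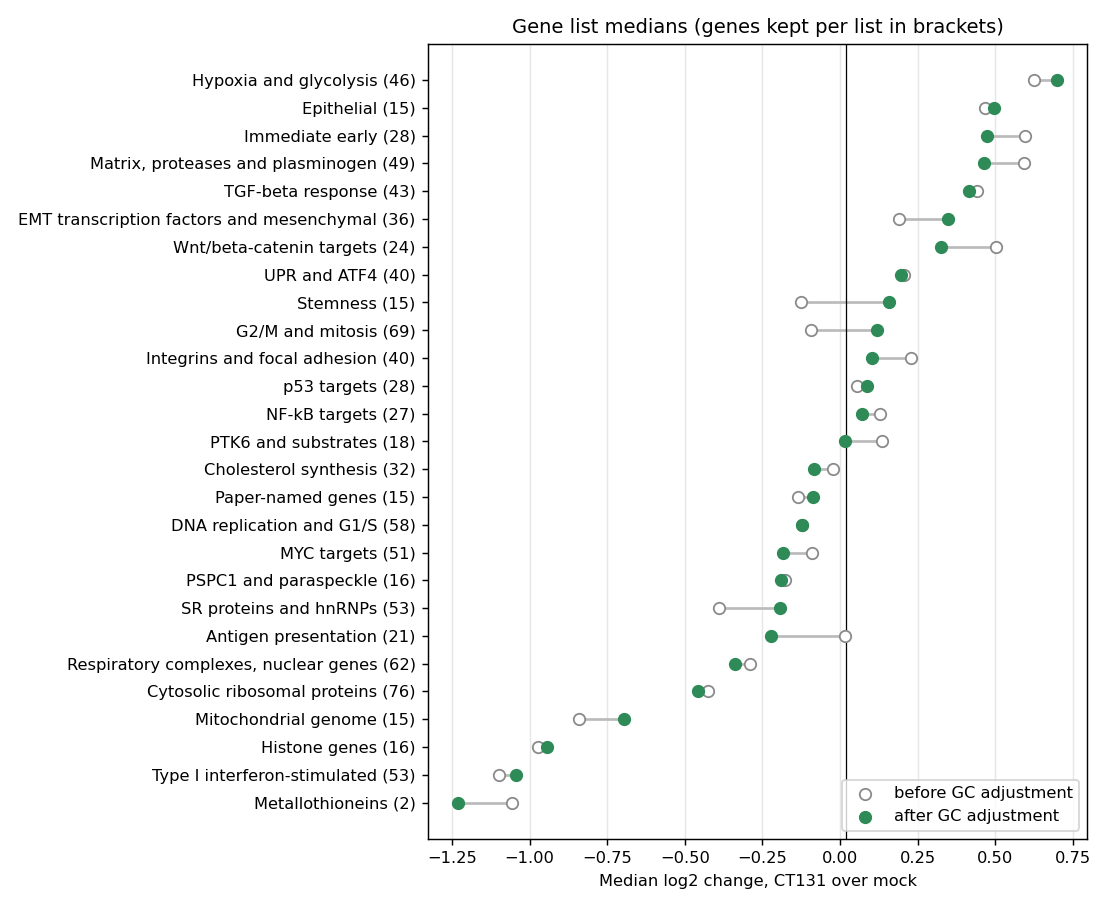
Median log2 change (CT131 over mock) of 27 gene lists, before (open) and after (green) GC adjustment, with the number of kept genes in brackets and a line at the median of all genes after adjustment (0.02). Hypoxia and glycolysis is the highest after adjustment (0.70), and metallothioneins (2 genes) and type I interferon-stimulated genes (-1.04) are the lowest.

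By chromosome, the medians before adjustment followed GC. Chromosomes 19 and 22, of median GC 58.6% and 56.3% over their kept genes, stood at 0.18 and 0.23, and chromosomes 4 and 13 (42.4% and 42.3%) at -0.21 and -0.21. After adjustment the medians of these 4 lay between -0.02 and 0.03. Among the autosomes and X, the medians after adjustment ran from -0.07 on chromosome 8 to 0.09 on chromosome 15. By gene class, 11127 protein-coding genes had a median of 0.01 before and 0.02 after, 376 lincRNAs 0.06 and 0.05, and 343 antisense genes 0.09 and -0.02. The 55 miRNA genes, whose short lengths give few reads a gene, held 10 higher and 13 lower before and 9 and 16 after. Among all genes 3.17% were higher and 3.16% lower before, and 2.0% and 2.03% after. Why this class exceeded those shares was not tested. The library kit that the labels name does not mark strand, so reads of antisense genes and of the genes they overlap cannot be told apart.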

How the data were processed

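RNA of human cell lines was sequenced, with 1 library per condition. According to the labels it was selected by poly-T beads and made into libraries with a kit that does not mark strand, whereas the study's methods name rRNA depletion. Groups came from the labels. The authors deposited per gene a read count (unnormalized) and FPKM, for 58302 Ensembl genes. Their FPKM used 1 gene length for all libraries. The submitters' processing notes name TopHat2 2.0, HTSeq 0.6.1, edgeR and GRCh38.p12 (the methods name hg18), and 97.6% of gene positions equaled GENCODE 29. Before the gene rows, 8 lines named no gene and were left out. The read counts summed to 22685424 (mock) and 19803374 (CT131). The 2 Huh-7 libraries were not used here.

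FPKM were quantile normalized over 8 libraries, as in the study. The log2 change was taken after adding 1, for genes whose normalized FPKM averaged 1 or more over the pair. GC adjustment subtracted a least-squares quadratic in the GC percent of the longest GENCODE 29 transcript and added back the median change, since the changes were known to follow GC. It also removes any true difference that follows GC. Python 3.11.15 was used.

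Named genes were the 12 highest and 12 lowest with at least 100 reads in a library and 2-fold on both scales. To these were added up to 4 members per list and direction that were 2-fold on both scales. Also named were 20 of the genes the study wrote about, a list that leaves out others it discusses. The last were the 5 most abundant genes of each direction that were 2-fold on 1 scale only. Members named within 2-fold were picked after their values were seen. The comparison, lists and members were chosen with earlier results of these data known. Of 58302 genes 57980 had a GC value and 57532 a symbol. Alternatives were adding 0.1 or 5, leaving FPKM unnormalized, TMM-scaled counts (edgeR 4.0.16), quantile normalization of the pair alone, no minimum, a minimum of 5 FPKM, and for the adjustment GC with gene length, 20 GC bins, and mean GC over transcripts. The steps were run on simulated data with a quadratic GC trend. The fit has the same form, so that run cannot show how well the adjustment suits these data. Intervals are 95% (Wilson for FPKM, exact Clopper-Pearson for ratios of reads). With 1 library a side no test across genes exists. Some genes that these rules name are not reported here.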

Additional observations from a re-analysis of the deposited data

How the results depend on the processing

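The counts of 2-fold genes depended on the pseudocount and scaling. With 0.1 added, 599 genes were higher and 601 lower before and 429 and 382 after GC adjustment. With 5 added these were 139 and 174, and 87 and 118. On FPKM as deposited they were 195 and 1001, and 128 and 576. Keeping genes that averaged 5 FPKM or more, 252 were higher before, and 144 higher and 150 lower after. TMM counts, quantile normalization of the pair alone, no minimum and the other GC fits left each count within 1.5 times. Without a minimum Spearman's rho of change with GC was 0.23, and elsewhere it lay between 0.55 and 0.62. No 2-fold call of a named gene changed sign under the alternatives. Of 81 named genes past 2-fold on both scales, 46 were past it under every setting. Of the list medians, paraspeckle genes turned on TMM counts (0.18 before and 0.11 after), the study's named genes likewise before (0.20), stemness genes with at least 5 FPKM before (0.32) and on FPKM as deposited after (-0.17), and NF-kB targets on FPKM as deposited before (-0.17). Lower interferon-stimulated genes numbered 18 to 31 before and 18 to 32 after, and higher hypoxia and glycolysis genes 13 to 20 and 12 to 17. After adjustment, matrix genes past 2-fold higher numbered 3 to 13, TGF-beta genes 1 to 8 and EMT genes 3 to 9. The causes were not tested. No paired analysis was possible because each condition had 1 library. Depth limits genes with few reads, since 3 reads of PSPC1 are worth 0.0897 FPKM in mock and 0.103 in CT131.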

Other observations

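Some genes outside the lists also differed at least 2-fold on both scales, and were chosen after their values were seen. They are single genes, and no count was made over the families they belong to. C4BPB, a secreted regulator of complement, went from 58.2 FPKM in mock to 11.1 in CT131 (-2.15 before and -2.03 after), the complement protease CFI from 9.61 to 0.782 (-2.21 before and -1.90 after) and the acute phase gene SAA1 from 26.4 to 4.05 (-2.21 before and -2.29 after), whereas C3 was at 0.13 before and -0.11 after. The lipoprotein gene APOE went from 24.0 to 5.38 FPKM (-1.71 before and -2.08 after), while Mut-NLS stood at 27.1. MAGEC2 (-1.16 before and -1.16 after), CTAG2 (-1.43 before and -1.78 after) and VCX3B (-1.87 before and -2.13 after), X-linked genes known for expression in testis and tumors, were lower. The Wnt ligands WNT6 (1.41 before and 1.04 after), WNT7B (1.73 before and 1.39 after) and WNT9A (1.71 before and 1.42 after) were higher, and WNT7B stood at 3.50 FPKM in mock, 10.1 in CT131 and 1.30 in Mut-NLS. S100A2 (1.71 before and 1.53 after), S100A3 (1.98 before and 1.70 after) and S100A16 (1.52 before and 1.28 after), calcium-binding proteins encoded close together on chromosome 1, were higher.

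MIR210HG, the host RNA of a microRNA known to rise in hypoxia, went from 6.02 to 17.9 FPKM with 4.29 in Mut-NLS (1.85 before and 1.58 after). MALAT1, a nuclear long noncoding RNA encoded beside NEAT1, was at 105 FPKM in mock, 38.4 in CT131 and 134 in Mut-NLS (-1.39 before and -1.06 after). ANKRD10 (-2.10 before and -2.08 after) and ANKRD10-IT1, a transcript within it (-2.50 before and -1.79 after), were both lower, and without strand their reads cannot be told apart. PRSS29P, a pseudogene, had 1 read in mock, 114 in CT131 and 108 in Mut-NLS.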
